A study of Sisymbrium orientale with 12 samples.

Results

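The genes described here form the nuclear auxin pathway of the leaf apart from IAA2: the Aux/IAA repressors, the auxin response factors (ARFs) and the TIR1/AFB receptors. They were taken as the assembled transcripts (contigs) whose closest Arabidopsis locus was one of 43 listed loci. The values of all contigs of a locus that had values were summed. Some annotated contigs had none: values were given for 1 of 5 contigs of AFB4, 3 of 7 of ARF19 and 2 of 4 of ARF11. They were also given for 1 of 3 of IAA29, 2 of 3 of IAA1 and of IAA18, and 1 of 2 of IAA17. Contigs without values add nothing to the sums of these genes. Of the 43 loci, 41 were measured, out of 16386 loci in all: 20 of 22 Aux/IAA genes, 15 of 15 ARFs and 6 of 6 receptors, on 63 contigs. No contig analysed here had IAA14 or IAA20 as its closest locus. Gene names below are those of the closest Arabidopsis locus.

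In the textbook account from Arabidopsis, auxin joins a TIR1/AFB receptor to an Aux/IAA protein through a short stretch called the degron, and the receptor complex marks the repressor for destruction. Aux/IAA proteins otherwise hold ARFs, which bind auxin response elements in DNA, in a repressed state together with TOPLESS co-repressors. ARFs of class A activate genes, and those of classes B and C are mostly seen as repressors. Herbicides such as 2,4-D are synthetic auxins that act through the same receptors.

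RNA came from untreated young leaves of Sisymbrium orientale, a weed of the mustard family, in lines resistant or susceptible to 2,4-D; the series title ascribes the resistance to a deletion in IAA2. Cross A (generation 4) gave the resistant lines R202, R206 and R221 and the susceptible lines S205, S207 and S242. Cross B (generation 3) gave the resistant lines RP6 and RP8 and the susceptible lines SP3, SP7, SP9 and SRP1. Per the labels, all lines were raised alike in a growth chamber and sampled at the same leaf stage, and none had met the herbicide. Cross and generation cannot be told apart, and the labels give no number of plants per library, so a p-value reflects nothing beyond the scatter of these libraries, which may be partly technical. Each library held between 100976475 and 145936928 recovered reads. Values are CPM, the reads of a contig scaled by the authors' adjusted library size, and 3 reads corresponded to 0.0196 to 0.0299 CPM, below every value of a member.

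Leaf identity was checked with marker genes. The photosynthetic markers, 5 of 6 of which were measured, summed to between 37877 and 96121 CPM, while none of the 3 root and 2 flower markers was the closest locus of a contig analysed here. The libraries differed in these markers. S205 had the highest photosynthetic sum (96121 CPM) and SP9 the next (77748 CPM), and both had the lowest sums of the 4 dividing-cell markers (108 and 109 CPM). The sum of S205 was carried by RBCS1A (48880 CPM), RBCS3B (29229 CPM) and RCA (14228 CPM). Its light-harvesting markers CAB1 (3298 CPM) and LHCB2.1 (486 CPM) lay below their medians over all lines, 5818 and 514 CPM. The dividing-cell marker CDKB2;1 stood at 52.6 CPM in S205, beside a median of 51.1 CPM. S242 had the highest sum of dividing-cell markers (274 CPM) and of the 2 epidermis markers (563 CPM, against 102 CPM in S205).

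The repressor family was dominated by IAA9, IAA7 and IAA8. Levels of different genes are compared per length, as CPM per kilobase of the gene's longest contig, which is not a full gene model. On this scale IAA9 (AT5G65670) stood at 120.3 ± 4.85 CPM per kb (SD, n = 12) and made up 21.2% of the family sum. IAA9 is the gene whose tomato counterpart is known for its role in leaf shape and fruit set. It was measured at 126, 113 and 121 CPM per kb in R202, R206 and R221, 119.6, 114 and 116 in S205, S207 and S242, 116 and 124 in RP6 and RP8, and 121, 127, 121 and 125 in SP3, SP7, SP9 and SRP1. It was the first of its family in 11 of 12 lines, and resistant and susceptible lines overlapped in both crosses.

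IAA7 (AT3G23050), known as AXR2 from auxin-resistant Arabidopsis mutants with a changed degron, followed at 91.6 ± 17.0 CPM per kb (SD, n = 12), or 16.2% of the family. Line by line it stood at 69.2, 78.4 and 77.1 CPM per kb in R202, R206 and R221, 127, 98.2 and 73.5 in S205, S207 and S242, 78.4 and 89.4 in RP6 and RP8, and 98.3, 109, 103 and 98.3 in SP3, SP7, SP9 and SRP1. It passed IAA9 in S205 and was lowest in R202. IAA8, the nearest relative of IAA9 in Arabidopsis, stood at 77.5 ± 10.6 CPM per kb (SD, n = 12; 13.7% of the family). Its values were 77.7, 86.9 and 85.0 CPM per kb in R202, R206 and R221, 81.0, 67.04 and 103 in S205, S207 and S242, 71.2 and 79.4 in RP6 and RP8, and 69.3, 68.5, 76.4 and 65.5 in SP3, SP7, SP9 and SRP1. S242 was highest, and IAA7 exceeded IAA8 in 8 of 12 lines, so this order did not hold in every line.

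Below these, the order IAA4 (56.8 CPM per kb), IAA16 (39.0 CPM per kb) and IAA27 (28.2 CPM per kb) held in all 12 lines. IAA16 is the gene in which a degron change confers dicamba resistance in the weed kochia. The next genes were less clearly ordered: IAA27 exceeded IAA3 (25.1 CPM per kb) in 8 lines, IAA3 exceeded IAA11 (21.2 CPM per kb) in 7, and IAA17 (19.7 CPM per kb) exceeded IAA18 (19.0 CPM per kb) in 5. The remaining repressors, IAA19, IAA12, IAA26, IAA13, IAA28, IAA6, IAA1, IAA5, IAA10 and IAA29, ran from 11.8 down to 1.34 CPM per kb. IAA29 was the only member that did not reach the filter of 1 CPM in 5 libraries, with 0.639 to 1.29 CPM over the 12 lines, and was not tested.

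**Figure D1:**
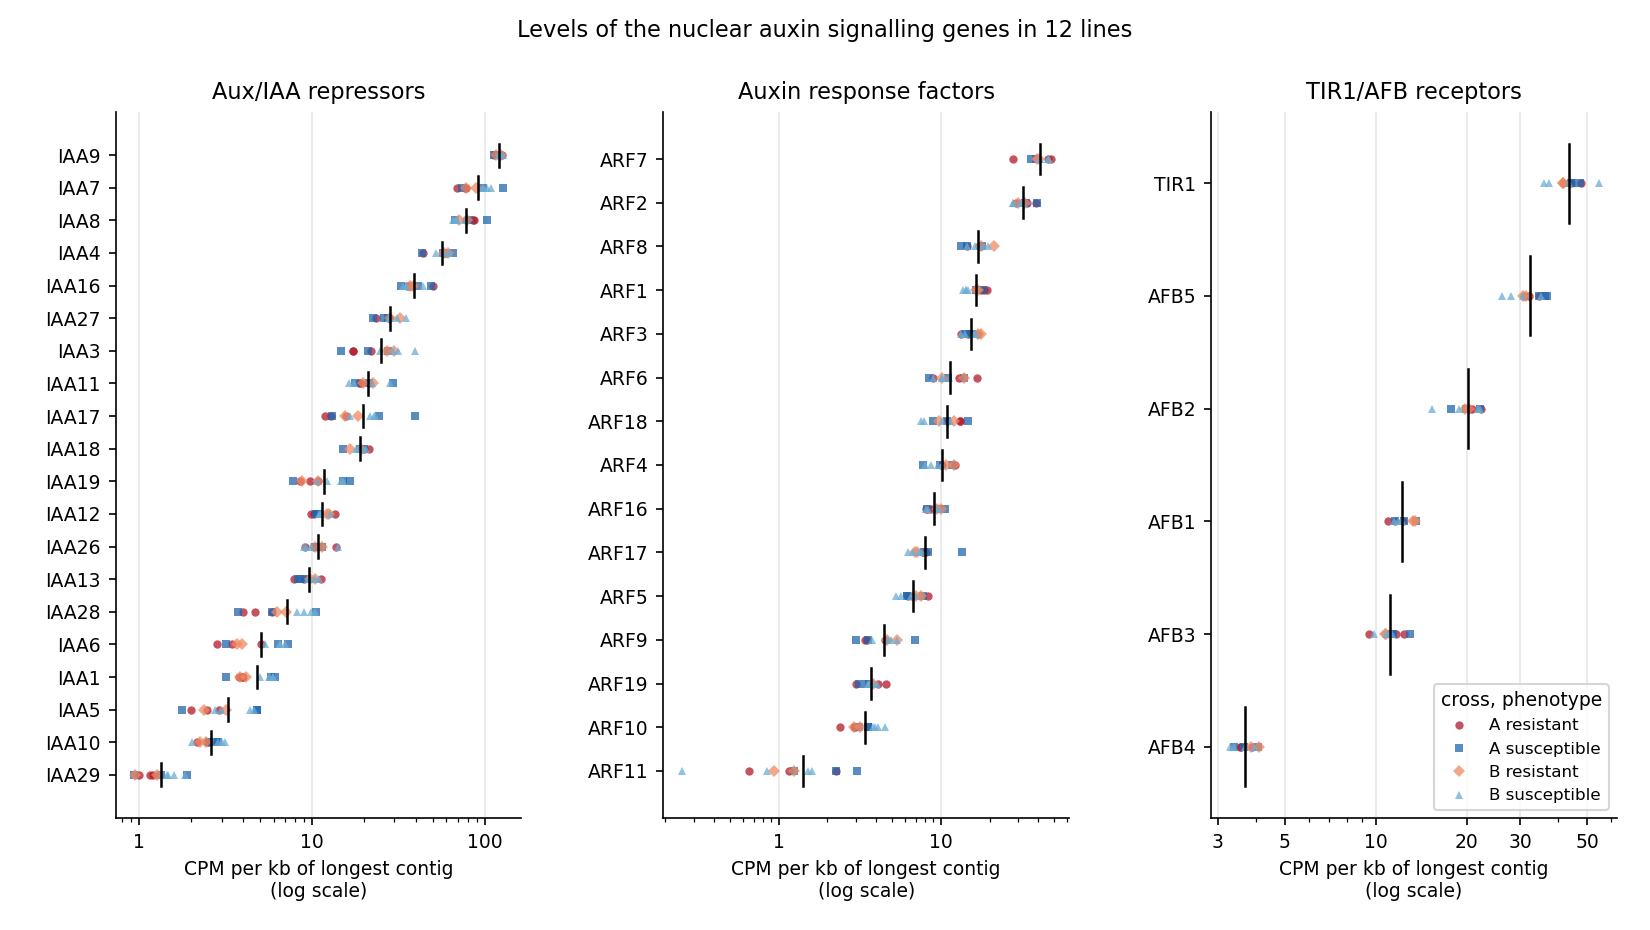
Level of each of the 41 genes in each of 12 lines, as CPM per kb of the longest contig on a log axis, with families in separate panels and the mean over lines as a vertical bar; symbols mark cross and phenotype. On this scale IAA9 (120.3 CPM per kb), ARF7 (40.8) and TIR1 (43.7) head their families, and ARF11 is the most widely scattered. In CPM not scaled by length ARF2 stands above ARF7.

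Among the ARFs, the class A activator ARF7 and the class B member ARF2 led. ARF7 (AT5G20730), needed with ARF19 for phototropism and lateral root formation in Arabidopsis, stood at 40.8 ± 5.47 CPM per kb (SD, n = 12), 21.4% of its family. Its values were 45.6, 27.9 and 47.7 CPM per kb in R202, R206 and R221, 39.3, 35.9 and 38.9 in S205, S207 and S242, 39.0 and 40.2 in RP6 and RP8, and 46.5, 41.0, 41.1 and 46.1 in SP3, SP7, SP9 and SRP1. R206 was the lowest line and the only one in which ARF2 came first on this scale. The order depends on the length used. ARF7 sums 3 contigs over a longest contig of 2146 bases, while ARF2 has 1 contig of 3728 bases. In summed CPM, not scaled by length, ARF2 stood above ARF7 in every line.

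ARF2 (AT5G62000), a repressor known for its effect on organ size and leaf senescence, stood at 32.4 ± 3.70 CPM per kb (SD, n = 12; 17.0%). It measured 33.9, 28.9 and 38.4 CPM per kb in R202, R206 and R221, 39.1, 33.2 and 33.4 in S205, S207 and S242, 29.9 and 33.2 in RP6 and RP8, and 30.7, 27.7, 32.0 and 27.8 in SP3, SP7, SP9 and SRP1. S205 and R221 were highest, and SP7 and SRP1 lowest. ARF8, a class A factor that a microRNA (miR167) targets in Arabidopsis, stood at 16.9 ± 2.36 CPM per kb (SD, n = 12). It measured 17.6, 14.5 and 17.3 CPM per kb in R202, R206 and R221, 13.3, 14.6 and 18.0 in S205, S207 and S242, 17.8 and 21.2 in RP6 and RP8, and 16.2, 19.7, 18.0 and 14.4 in SP3, SP7, SP9 and SRP1. RP8 was highest and S205 lowest, and ARF8 exceeded ARF1 (16.5 CPM per kb) in only 6 of 12 lines, so their order was not settled. ARF8 sums 2 contigs and ARF1 sums 4. On its highest contig alone, the mean of ARF8 lay below those of ARF3, ARF6 and ARF18, which have 1 contig each.

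ARF3, also called ETTIN and known with ARF4 for leaf polarity, stood at 15.3 CPM per kb and exceeded ARF6 (11.4 CPM per kb) in all lines. The other ARFs, from ARF18 (10.9 CPM per kb) to ARF11 (1.42 CPM per kb), included ARF5, or MONOPTEROS, at 6.70 and ARF19 at 3.71 CPM per kb. ARF7 thus stood above its partner ARF19 in these leaves, on a longest contig of 2146 bases against 4271 bases. By class, the 5 class A genes summed to 79.4 ± 8.73, the 7 class B genes to 91.0 ± 7.90 and the 3 class C genes to 20.4 ± 2.50 CPM per kb (SD, n = 12). On this scale class A exceeded class B in SP7 and SRP1 and lay below it in the other 10 lines. The ratio lay between 0.684 in R206 and 1.03 in SP7. In summed CPM, not scaled by length, class A lay below class B in every line. It had 227 CPM against 235 CPM in SP7, and 217 CPM against 237 CPM in SRP1.

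Among the receptors, TIR1 and AFB5 came first and second per kb in every line. TIR1 (AT3G62980), the first auxin receptor identified, stood at 43.7 ± 4.88 CPM per kb (SD, n = 12) and made up 35.5% of its family. It was measured at 47.8, 41.5 and 44.2 CPM per kb in R202, R206 and R221, 47.5, 44.3 and 44.5 in S205, S207 and S242, 41.6 and 41.5 in RP6 and RP8, and 43.5, 37.5, 54.6 and 36.1 in SP3, SP7, SP9 and SRP1. SP9 was highest and SRP1 lowest, both susceptible lines of cross B.

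AFB5, known in Arabidopsis for its preference for picloram-type herbicides, stood at 32.3 ± 3.32 CPM per kb (SD, n = 12; 26.2%). Its values were 32.2, 30.9 and 34.6 CPM per kb in R202, R206 and R221, 37.0, 36.2 and 34.7 in S205, S207 and S242, 31.4 and 30.7 in RP6 and RP8, and 30.8, 26.1, 35.3 and 28.1 in SP3, SP7, SP9 and SRP1. SP7 was lowest and S205 highest. AFB2 stood at 20.1 ± 2.04 CPM per kb (SD, n = 12; 16.3%), with 20.9, 20.3 and 22.3 CPM per kb in R202, R206 and R221, 17.7, 19.9 and 22.1 in S205, S207 and S242, 19.7 and 20.4 in RP6 and RP8, and 18.9, 22.2, 15.4 and 21.7 in SP3, SP7, SP9 and SRP1. SP9, where TIR1 was highest, was lowest for AFB2. TIR1 exceeded AFB5, AFB5 exceeded AFB2 and AFB2 exceeded AFB1 (12.2 CPM per kb) in all 12 lines. AFB1 exceeded AFB3 (11.1 CPM per kb) in 9, and AFB4 (3.70 CPM per kb) was last throughout. The place of AFB2 rests on the sum of 2 contigs over a longest contig of 2586 bases, while AFB1 has 1 contig. With its highest contig alone, AFB2 lay below AFB1 per kb in S205, S207, RP6 and SP9.

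Per kb, the family sums were 566 ± 46.5 for the repressors, 191 ± 13.4 for the ARFs and 123 ± 7.24 for the receptors (SD, n = 12). The sum of the repressors was 2.39 to 3.43 times that of the ARFs. This ratio was 2.79 ± 0.317 in resistant lines (SD, n = 5) and 3.13 ± 0.332 in susceptible lines (SD, n = 7), with overlapping ranges of 2.39 to 3.24 and 2.52 to 3.43. How reads shared by contigs of the same gene or by close relatives such as IAA8 and IAA9 were assigned is not stated in the labels, so the split between relatives is uncertain. Taking the highest contig of a gene alone lowered ARF7 to 25.8 CPM per kb, behind ARF2, and IAA7 to 72.3 CPM per kb, behind IAA8.

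The spread over the lines differed widely between members. The median ratio of the highest to the lowest line was 1.57 over the 40 members tested, against 1.77 over all 16051 loci tested. It was 1.57 for the repressors, 1.60 for the ARFs and 1.39 for the receptors. IAA9 was the steadiest member (1.13), followed by the receptors AFB1 (1.24) and AFB4 (1.25). At the other end stood ARF11, a class B factor, with 1.04, 1.84 and 3.55 CPM in R202, R206 and R221, 4.80, 1.97 and 3.54 in S205, S207 and S242, 1.46 and 1.95 in RP6 and RP8, and 1.34, 2.52, 2.38 and 0.398 in SP3, SP7, SP9 and SRP1. ARF11 was high in S205, R221 and S242 and low in SRP1 and R202, in no order of phenotype. IAA17, known as AXR3 from auxin-resistant mutants of Arabidopsis, had a ratio of 3.34, and IAA28, IAA5, IAA3 and IAA6 had ratios of 2.85, 2.72, 2.68 and 2.57. These genes were named for their spread after their values were seen.

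S205 and S242, both susceptible lines of cross A, were often the extreme lines for a repressor. Of the 20 repressors, S205 had the highest value for 9 (IAA1, IAA4, IAA5, IAA7, IAA11, IAA17, IAA19, IAA28 and IAA29), beside 24.5% of all loci tested. S242 had the lowest value for 10 (IAA1, IAA3, IAA4, IAA5, IAA16, IAA18, IAA19, IAA27, IAA28 and IAA29), beside 9.40% of all loci tested. IAA17, for example, was measured at 12.6, 16.6 and 13.7 CPM in R202, R206 and R221, 42.0, 26.1 and 13.8 in S205, S207 and S242, 19.7 and 16.4 in RP6 and RP8, and 17.7, 22.9, 24.6 and 24.2 in SP3, SP7, SP9 and SRP1. S205 was thus 3.34 times the lowest line, R202, and S242 lay among the resistant lines of cross A. IAA8 went the other way, with its highest value in S242, and IAA9 hardly varied. SP9, which also stood apart in photosynthetic markers, was highest for 4 repressors (IAA3, IAA10, IAA26 and IAA27), beside 10.4% of all loci tested. Of the 15 ARFs, S205 was highest for 5 (ARF2, ARF9, ARF11, ARF16 and ARF17) and lowest for 3 (ARF4, ARF6 and ARF8), while SP7 was lowest for 6. Over all loci tested S205 was lowest for 25.9% and SP7 for 8.81%. These counts were not tested. The photosynthetic markers summed to 96121 CPM in S205 and 43019 CPM in S242, and the 3 vascular markers to 217 and 70.9 CPM. Not every marker followed its sum. The photosynthetic marker CAB1 had 3298 CPM in S205 and 5358 CPM in S242. Most of the vascular contrast came from SUC2 (151 and 20.9 CPM), while ATHB8 was nearly level (44.6 and 40.3 CPM). The part of these markers in the values of the members was not tested, and in whole leaves fewer cells of a type and less RNA per cell cannot be told apart.

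**Figure D2:**
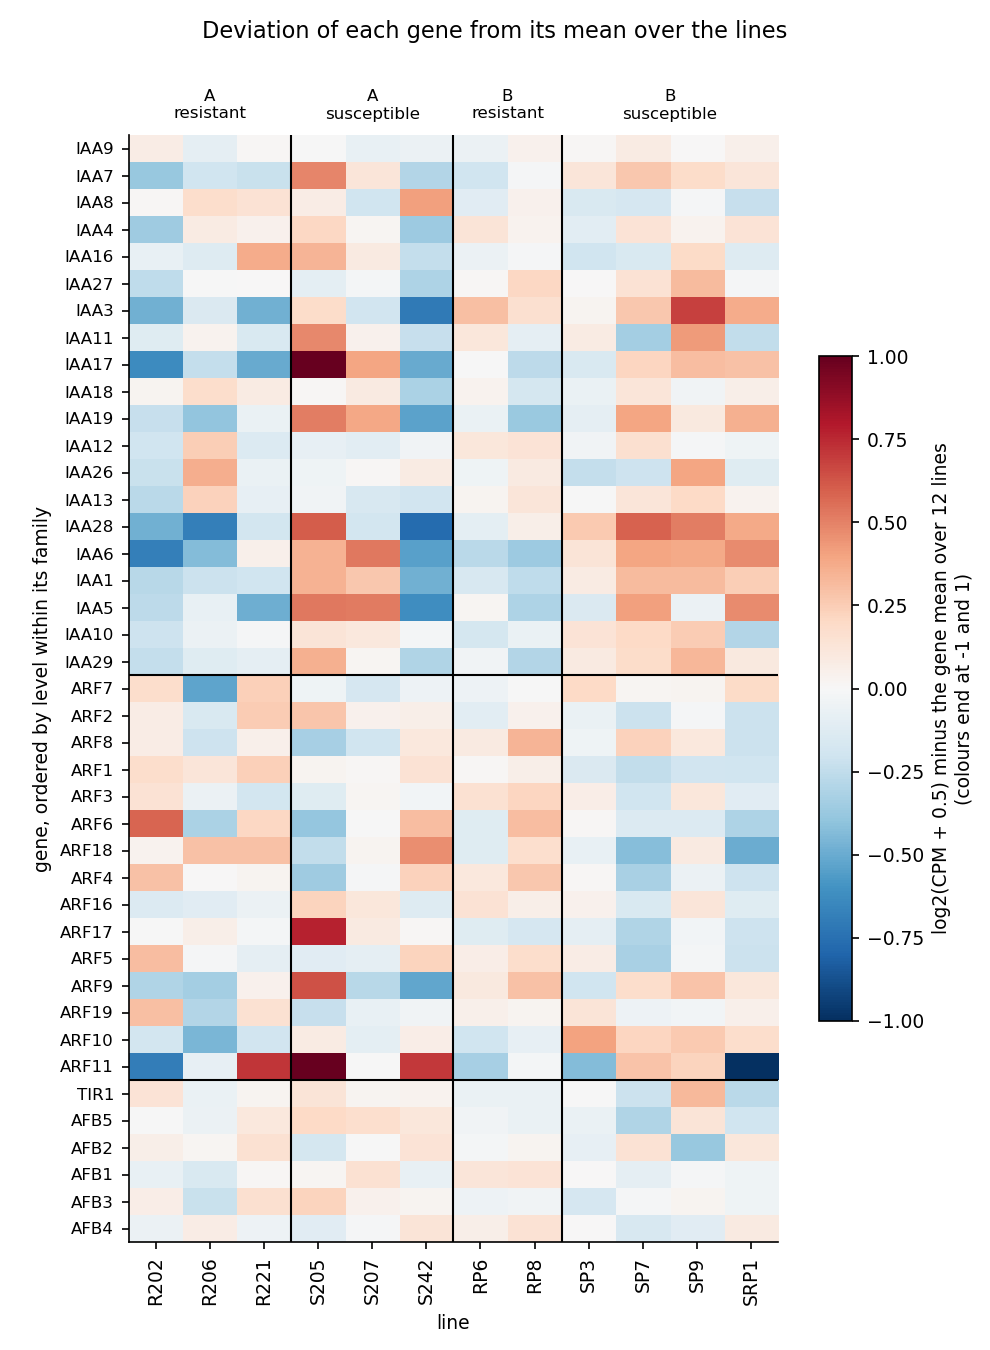
Deviation of each of the 41 genes (rows, by family and level) from its own mean over 12 lines (columns, by cross and phenotype), as log2(CPM + 0.5), with red above and blue below the mean. Many repressors are red in S205 and blue in S242, and IAA9 is near white in every line.

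Resistant and susceptible lines were compared over both crosses, with the cross in the model, to ask whether the pathway around IAA2 differs with the resistance. No member passed the test: limma called 0 of 40 members, and 0 of all 16051 loci tested (0%), at an adjusted p under 0.05. At an unadjusted p under 0.05 there were 6 members, 1 higher and 5 lower in resistant lines, and 1320 loci (8.22%) in all. On the recovered reads edgeR called 0 loci, and DESeq2 called 20 loci with 0 members among them. The authors' deposited table of resistant against susceptible lines lists 277 contigs, of which 0 belong to a member. The photosynthetic markers summed to 37877 to 50618 CPM in resistant and 43019 to 96121 CPM in susceptible lines, and the dividing-cell markers to 172 to 240.1 and 108 to 274 CPM. Their part in the differences below was not tested. The groups overlapped for all 40 members, while they did not overlap for 85 (0.53%) of all loci.

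ARF10 (AT2G28350), a class C factor and a target of miR160 in Arabidopsis, had the smallest p. It was measured at 7.75, 6.31 and 7.70 CPM in R202, R206 and R221, 9.40, 8.25 and 9.27 in S205, S207 and S242, 7.65 and 8.35 in RP6 and RP8, and 11.8, 10.4, 10.7 and 10.03 in SP3, SP7, SP9 and SRP1. Its means were 7.55 ± 0.750 CPM in resistant lines (SD, n = 5) and 9.98 ± 1.15 CPM in susceptible lines (SD, n = 7; log2 difference -0.34, SE 0.0788, limma adjusted p = 0.587). Every resistant line lay below every susceptible line of its own cross, but RP8 lay above S207 of the other cross. The unadjusted 95% interval of the log2 difference ran from -0.52 to -0.17. Over 22 other settings the adjusted p ranged from 0.0607 to 0.931, and the sign was the same in each.

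ARF1 (AT1G59750), a class B repressor, led the members with higher means in resistant lines. It was measured at 50.9, 48.9 and 53.1 CPM in R202, R206 and R221, 46.0, 45.4 and 49.8 in S205, S207 and S242, 45.4 and 46.8 in RP6 and RP8, and 40.8, 38.0, 39.4 and 39.3 in SP3, SP7, SP9 and SRP1. Its means were 49.0 ± 3.11 CPM in resistant lines (SD, n = 5) and 42.7 ± 4.43 CPM in susceptible lines (SD, n = 7; log2 difference 0.17, SE 0.0543, limma adjusted p = 0.587). S205, S207 and S242, the susceptible lines of cross A, all lay inside the range of the resistant lines, S207 only just above RP6. The lowest values were the susceptible lines of cross B.

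3 of the 5 members with the smallest p were repressors with lower means in resistant lines. IAA6, known as SHY1, was measured at 2.56, 3.14 and 4.60 CPM in R202, R206 and R221, 5.78, 6.59 and 2.88 in S205, S207 and S242, 3.59 and 3.34 in RP6 and RP8, and 4.89, 5.96, 5.91 and 6.32 in SP3, SP7, SP9 and SRP1. Its means were 3.45 ± 0.748 and 5.48 ± 1.26 CPM (SD, n = 5 and 7; log2 difference -0.56, SE 0.188, limma adjusted p = 0.587). S242 lay among the resistant lines. IAA7, given per kb above, stood at 96.3 ± 8.83 and 124 ± 19.5 CPM (SD, n = 5 and 7; log2 difference -0.33, SE 0.115, limma adjusted p = 0.587), and S242 again lay among the resistant lines. IAA1, also known as AXR5, was measured at 3.34, 3.503 and 3.55 CPM in R202, R206 and R221, 5.43, 5.11 and 2.83 in S205, S207 and S242, 3.67 and 3.41 in RP6 and RP8, and 4.42, 5.30, 5.29 and 4.999 in SP3, SP7, SP9 and SRP1. Its means were 3.49 ± 0.128 and 4.77 ± 0.917 CPM (SD, n = 5 and 7; log2 difference -0.36, SE 0.137, limma adjusted p = 0.587). The 5 resistant lines kept within 3.34 and 3.67 CPM, and of the susceptible lines S242 alone lay below them.

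Of the genes that head the families, IAA9 had the narrowest interval. It had a log2 difference of 0.00 with an interval of -0.12 to 0.13. ARF7 (-0.04, interval -0.31 to 0.23) and TIR1 (-0.03, interval -0.24 to 0.19) had wider ones. Over the 6 receptors the log2 differences ran from -0.05 to 0.07, with 3 on each side of 0.

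By family, the median log2 difference was -0.08 over the 19 repressors tested, 0.09 over the 15 ARFs and -0.0026 over the 6 receptors, beside -0.01 over all loci tested. Of the repressors, 11 had a negative and 8 a positive difference. That direction rested on single lines: without S205 and SP9 the median was 0.04, with 11 of 19 positive, without S205 alone it was 0.01, and without S242 it was -0.15, with 15 of 19 negative. Of the ARFs, 9 were positive and 6 negative, and the median stayed above 0 without S205 and SP9 (0.12, 12 of 15 positive). Class A had 4 of 5 positive, class B 5 of 7, and class C 0 of 3. The median of the receptors changed its sign in several settings. It was 0.0024 with median-ratio rescaling, 0.0021 without the cross in the model, 0.03 without R206 and 0.02 without SP9. It was also above 0 with edgeR, without S205 and SP9 together, and without R202, S205 or S207. In the remaining settings it was below 0.

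**Figure D3:**
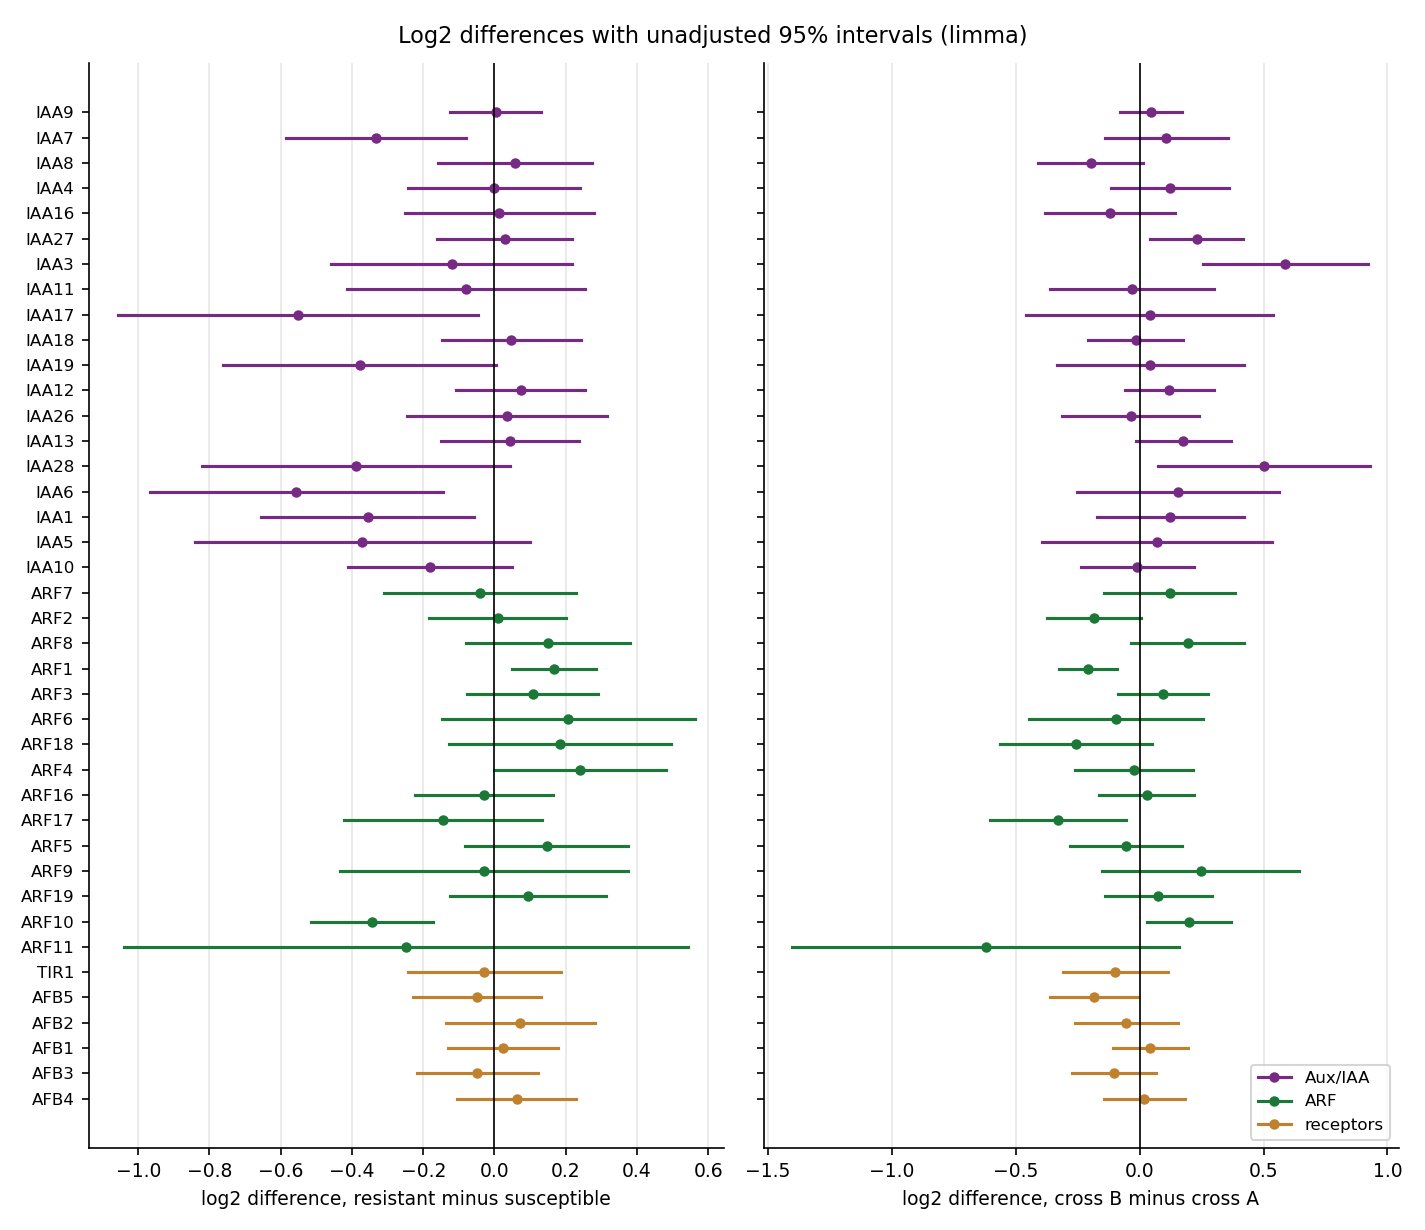
Log2 difference of each of 40 genes with its unadjusted 95% interval from limma, between resistant and susceptible lines (left) and between cross B and cross A (right), coloured by family. On the left ARF10 (-0.34) is the member farthest from 0 for its interval, and on the right ARF1 (-0.21) and IAA3 (0.59); none passed the adjusted threshold.

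Within cross A limma called 0 of 16051 loci (0%) and 0 members, with 829 loci (5.16%) and 3 members at an unadjusted p under 0.05; edgeR called 0 loci and DESeq2 9, with 0 members. The members with the smallest p were ARF10 (log2 difference -0.29, SE 0.111, limma adjusted p = 0.686), IAA17 (-0.78), IAA7 (-0.38), IAA6 (-0.47) and ARF17 (-0.28), each with the same adjusted p. The value of IAA17 moved with the library left out, from -1.19 without S242 to -0.40 without S205. The value of IAA7 moved from -0.58 without S242 to -0.18 without S205, and that of ARF17 from -0.42 to -0.04 without the same lines. That of IAA6 moved from -0.79 without S242 to -0.26 without S207. The groups of cross A did not overlap for 2 members, ARF10 and the receptor AFB5, both lower in resistant lines, beside 7.58% of all loci.

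Within cross B limma called 4 of 16051 loci (0.0249%), 3 higher (0.0187%) and 1 lower (0.00623%) in resistant lines, of which 0 were members, and 706 loci (4.40%) had an unadjusted p under 0.05, 3 of them members. ARF10 had the smallest p again (log2 difference -0.40, SE 0.118, limma adjusted p = 0.929), followed by ARF1 (log2 difference 0.23, SE 0.0797, limma adjusted p = 0.974), IAA6 (-0.66), IAA1 (-0.44) and ARF4 (0.33). ARF4, which acts with ARF3 in leaf polarity and is targeted by a trans-acting small RNA in Arabidopsis, was measured at 34.7 and 39.0 CPM in RP6 and RP8 and at 32.5, 25.6, 31.0 and 27.9 CPM in SP3, SP7, SP9 and SRP1. The groups did not overlap for 10 members: ARF1, ARF3, ARF4 and AFB1 were higher and IAA1, IAA6, IAA7, IAA28, ARF7 and ARF10 lower in every resistant line, beside 21.9% of all loci. ARF10 was the only member whose groups did not overlap within either cross in the same direction, a pattern held by 1.28% of all loci.

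**Figure D4:**
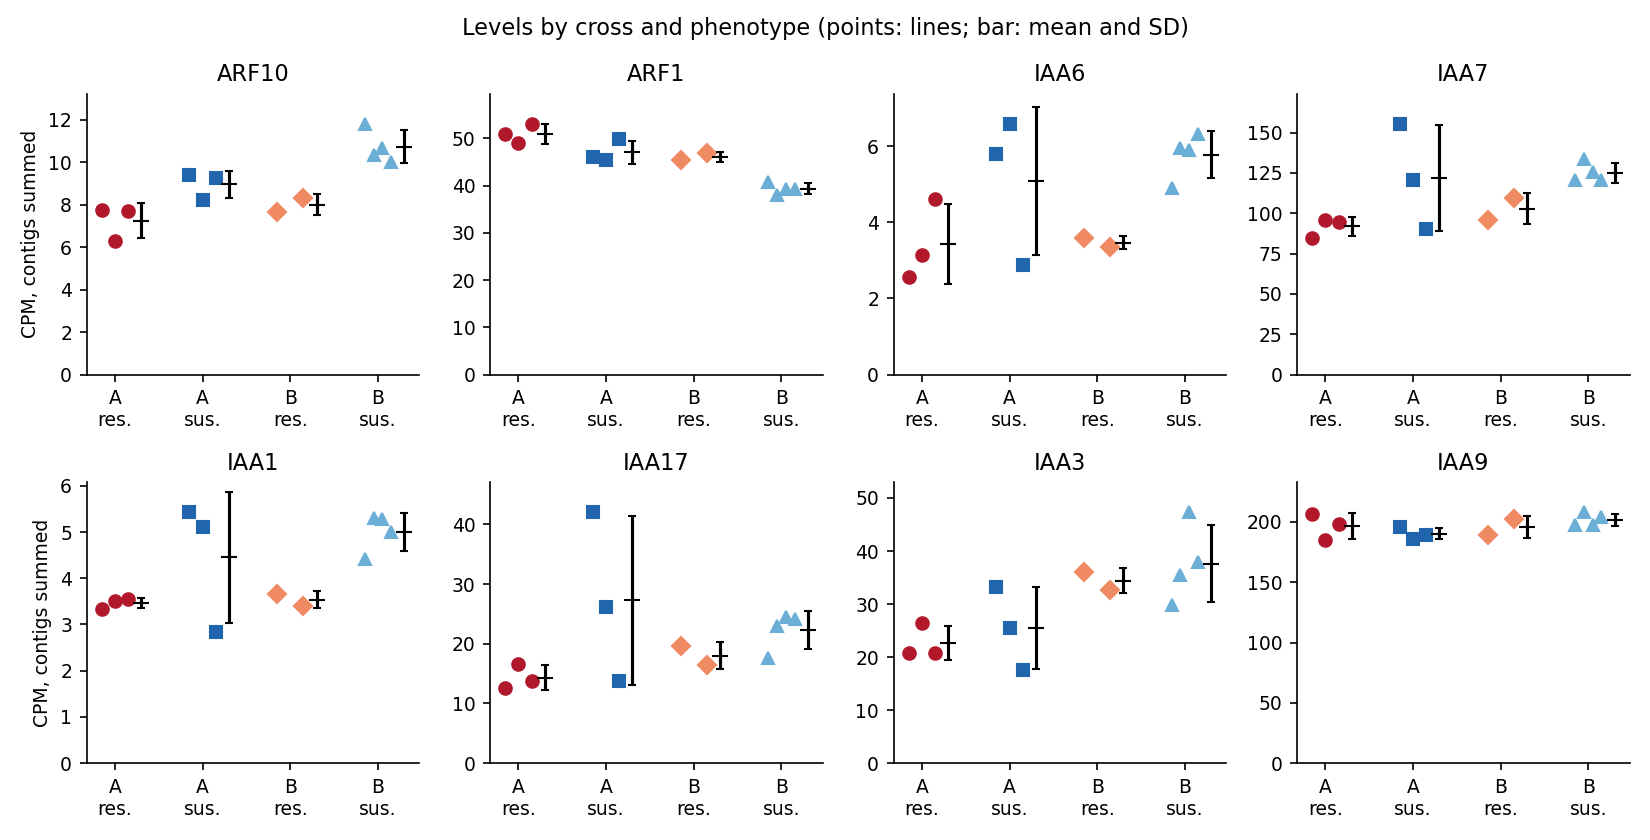
CPM summed over contigs for 8 members in each line (points), by cross and phenotype, with the group mean and SD (n = 3, 3, 2 and 4) beside the points; axes start at 0. ARF10 lies lower in the resistant lines of both crosses, S242 lies with the resistant lines for IAA6, IAA7 and IAA17 and below them for IAA1, and IAA9 is level throughout.

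Whether the difference between phenotypes differs between the crosses was tested as an interaction. Limma called 0 of 16051 loci (0%), with 498 (3.10%) and 0 members at an unadjusted p under 0.05; edgeR called 0 loci and DESeq2 16, with 0 members. The members with the smallest p were AFB1 (log2 difference 0.27, SE 0.123, limma adjusted p = 0.999), ARF16 (0.30), IAA18 (-0.26), ARF3 (0.21) and AFB5 (0.20). AFB1, known in Arabidopsis for fast auxin responses of roots, was measured at 24.8, 23.6 and 26.5 CPM in R202, R206 and R221, 26.6, 29.2 and 24.9 in S205, S207 and S242, 28.7 and 28.9 in RP6 and RP8, and 26.3, 24.6, 26.1 and 25.4 in SP3, SP7, SP9 and SRP1. In cross B both resistant lines lay above the susceptible lines, and in cross A the groups overlapped. ARF16, a class C factor, was measured at 20.3, 20.7 and 21.5 CPM in R202, R206 and R221, 26.2, 24.2 and 20.4 in S205, S207 and S242, 24.8 and 23.4 in RP6 and RP8, and 23.1, 20.1, 24.3 and 20.6 in SP3, SP7, SP9 and SRP1. Its resistant lines lay low in cross A and among the higher lines in cross B. IAA18 was measured at 34.8, 38.6 and 36.2 CPM in R202, R206 and R221, 34.3, 36.3 and 27.3 in S205, S207 and S242, 34.9 and 30.1 in RP6 and RP8, and 32.5, 37.1, 33.3 and 35.6 in SP3, SP7, SP9 and SRP1, with its lowest value in S242. The difference of IAA18 moved with the library left out, to -0.14 without S242 and -0.15 without RP8. ARF3 was measured at 41.5, 36.0 and 32.9 CPM in R202, R206 and R221, 34.4, 38.0 and 36.8 in S205, S207 and S242, 41.8 and 43.5 in RP6 and RP8, and 39.3, 32.6, 40.5 and 34.5 in SP3, SP7, SP9 and SRP1, and its highest values were those of RP8 and RP6. The difference of ARF3 was 0.13 without R221.

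Between the crosses, with the phenotype in the model, limma called 200 of 16051 loci (1.25%), 90 higher (0.561%) and 110 lower (0.685%) in cross B, and 0 of the 40 members. At an unadjusted p under 0.05 there were 2177 loci (13.6%) and 7 members, 4 higher and 3 lower in cross B. ARF1, whose values are given above, stood nearest the threshold, with 49.0 ± 2.96 CPM in cross A and 41.6 ± 3.63 CPM in cross B (SD, n = 6 each; log2 difference -0.21, SE 0.0536, limma adjusted p = 0.0982). IAA3 (AT1G04240), known as SHY2 and involved in root growth and light responses in Arabidopsis, was close to it. It was measured at 20.8, 26.4 and 20.8 CPM in R202, R206 and R221, 33.2, 25.5 and 17.7 in S205, S207 and S242, 36.1 and 32.7 in RP6 and RP8, and 29.8, 35.4, 47.3 and 37.9 in SP3, SP7, SP9 and SRP1. All cross B lines lay above R202, R206, R221, S207 and S242, and S205 lay among them. The means were 24.1 ± 5.55 CPM in cross A and 36.5 ± 5.99 CPM in cross B (SD, n = 6 each; log2 difference 0.59, SE 0.152, limma adjusted p = 0.1001).

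Whether either gene passed depended on the setting. DESeq2 called both ARF1 (adjusted p = 0.00129) and IAA3 (adjusted p = 0.0167). Limma called IAA3 without S205 (log2 difference 0.70, adjusted p = 0.0402) and without S205 and SP9 (0.64, adjusted p = 0.0424). Over all 22 other settings the adjusted p of ARF1 ranged from 0.00129 to 0.200 and that of IAA3 from 0.0167 to 0.199. Without 1 library, the count of all loci called ranged from 54 to 270. It was 54 without SP3, 57 without RP8, 62 without S207, 65 without SP7 and 70 without SP9 or SRP1. It was 73 without S242, 96 without R221, 108 without R202 and 138 without RP6. Without S205 (210) and without R206 (270) it lay above the 200 of all lines.

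The next members between the crosses were IAA27, ARF17 and ARF10. IAA27 was measured at 33.7, 40.2 and 40.3 CPM in R202, R206 and R221, 37.6, 39.7 and 32.4 in S205, S207 and S242, 40.5 and 46.6 in RP6 and RP8, and 40.5, 44.6, 50.1 and 40.0 in SP3, SP7, SP9 and SRP1. It had means of 37.3 ± 3.496 and 43.7 ± 4.12 CPM (SD, n = 6 each; log2 difference 0.23, SE 0.0851, limma adjusted p = 0.263), and the crosses overlapped. ARF17 (AT1G77850), the third class C factor, was measured at 21.7, 22.7 and 21.5 CPM in R202, R206 and R221, 37.6, 23.2 and 22.0 in S205, S207 and S242, 19.9 and 19.3 in RP6 and RP8, and 20.4, 17.6, 21.3 and 18.8 in SP3, SP7, SP9 and SRP1. It was the only member whose crosses did not overlap, beside 331 (2.06%) of all loci, although SP9 and R221 nearly met, and S205 stood far above the rest. Its means were 24.8 ± 6.30 and 19.6 ± 1.301 CPM (SD, n = 6 each; log2 difference -0.33, SE 0.125, limma adjusted p = 0.278), and without 1 library the difference ranged from -0.39 to -0.18. ARF10 had 8.11 ± 1.15 and 9.82 ± 1.55 CPM (SD, n = 6 each; log2 difference 0.20, SE 0.0776, limma adjusted p = 0.289). By family, 13 of 19 repressors were positive in cross B over cross A (median 0.07), 7 of 15 ARFs (-0.02) and 2 of 6 receptors (-0.08), beside a median of 0.01 over all loci tested. Without S242 the direction of the repressors turned, with 8 of 19 positive and a median of -0.02. The median of the ARFs was also above 0 without S242 (0.01), without SP7 (0.02), without R202 (0.0024) and with contigs tested singly (0.03).

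The contigs came from 2 assemblies marked R and S, and 9 members had contigs of both. For 8 of these, and 3959 loci in all, the log2 ratio of R-assembly to S-assembly values was tested as a measure apart from the summed level. Between phenotypes limma called 2 loci (0.0505%), and between crosses 85 (2.15%), with 0 members in either. At an unadjusted p under 0.05 there were 290 loci (7.33%) between phenotypes and 686 (17.3%) between crosses, and 0 of the 8 members in either. IAA7, which lies near IAA2 in Arabidopsis, had contigs of the S assembly alone, so no ratio could be had.

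ARF17 stood out by its spread from line to line. Its R-assembly contig took 72.6% and 74.5% of its value in R202 and R206 but 33.0% in R221, the third resistant line of cross A. In S205, S207 and S242 the share was 41.1%, 36.6% and 33.4%. In cross B it was 55.0% and 54.4% in RP6 and RP8, and 56.8%, 54.3%, 55.2% and 52.2% in SP3, SP7, SP9 and SRP1. Cross B was thus even, near equal shares, while cross A split into R202 and R206 on the high side and the other 4 lines on the low side. Behind these shares, the R-assembly contig had 15.7 CPM in R202 and 7.09 CPM in R221, and the S-assembly contig 5.95 and 14.4 CPM, so that the sums of 21.7 and 21.5 CPM were close. The spread of the share was 41.5 percentage points, against a median of 7.21 points over 3957 loci, of which 307 (7.76%) had a spread at least as wide. The log2 ratio differed by 0.71 between phenotypes (SE 0.423, limma adjusted p = 0.713) and by 0.44 between crosses (SE 0.418, limma adjusted p = 0.656). The first value was 0.47 without R202 and 0.44 without R206, and the second was 0.21 without R221.

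The shares of the other members varied less. The spread was 21.1 points for ARF11, which was too low in its R-assembly contig to be tested, and between 1.24 points (ARF4) and 7.83 points (IAA10) for the other 7. For the phenotype, the smallest p after ARF17 belonged to IAA10 (-0.11), IAA18 (-0.10), ARF1 (-0.03) and ARF7 (0.02), and for the cross the members were led by ARF7 (-0.08), ARF4 (0.09) and, after ARF17, IAA3 (-0.04) and IAA10 (-0.04), all log2 differences of the ratio.

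**Figure D5:**
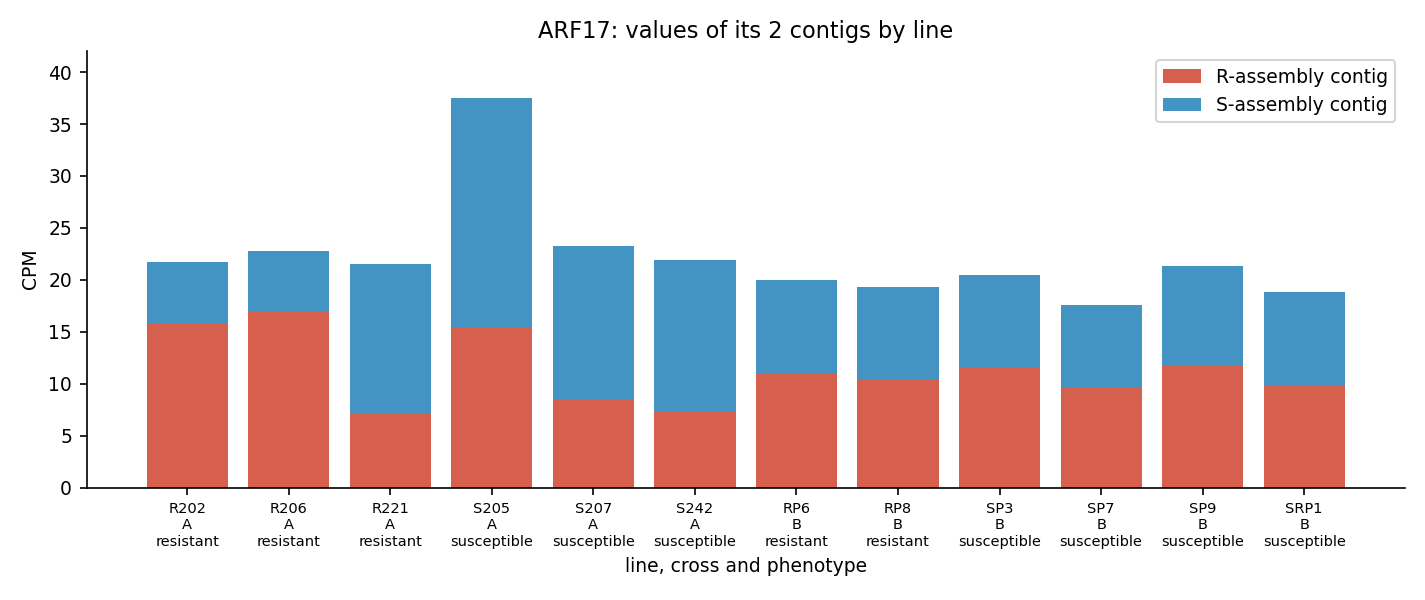
CPM of the R-assembly contig (red) and the S-assembly contig (blue) of ARF17 in each line, stacked so that the bar height is their sum. The R-assembly contig takes 72.6% and 74.5% in R202 and R206, 33.0% to 41.1% in the other lines of cross A, and 52.2% to 56.8% in cross B.

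The partners of these proteins were compared in the same models: 10 genes of the receptor's ubiquitin ligase and its NEDD8 cycle, 5 TOPLESS co-repressors and the phosphatase IBR5. Of these 16 loci, 15 were tested, and ASK2 was the closest locus of no contig analysed here. None of the 15 passed in any comparison, by limma. Between phenotypes over all lines 0 had an unadjusted p under 0.05, and the median log2 difference was 0.05, with 9 positive and 6 negative. The smallest p belonged to ASK1, an adaptor of the ligase (-0.18), CAND1, which exchanges its receptor subunits (0.18), and the co-repressors TPR4 (0.17) and TPR1 (0.24), with limma adjusted p from 0.587 to 0.606. The 5 co-repressors were all positive within cross A (median 0.32) and 2 of 5 were positive within cross B (median -0.01), and for none of them did the interaction with the cross pass. Their summed CPM ranged from 342 to 473 in the resistant and from 308 to 382 in the susceptible lines of cross A.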

How the data were processed

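Values were taken from young leaf RNA libraries (TruSeq stranded poly(A) kit, per the labels) of 12 lines. Per the deposited files, the authors' signal is each contig's reads over a scaled library size (CPM), and whole reads were recovered from them for 100% of values within 0.1 of a read, R206 included, where 1 read is worth 0.00998 CPM and 0.923% of values are multiples of a hundredth. The deposited annotation gives each contig's closest Arabidopsis locus and its length in bases. The deposited comparison by the authors holds log2 fold changes and p-values, used here only to look up members. Bowtie2, SAMtools 1.3.1, edgeR, R 3.3 and TAIR10 are named per the submitters' processing notes, while their roles and the counting of reads that match several contigs are not known here.

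Contigs were summed per locus and tested as log2(CPM + 0.5) with limma 3.58.1 (R 4.3.3), using its trended prior and Benjamini-Hochberg adjusted p-values, over the 16051 loci that reached 1 CPM in 5 or more libraries; such differences understate the change of low genes. Phenotypes were compared over all lines with cross as a covariate, within each cross and between the crosses in a model with 1 mean per group, and crosses with phenotype as a covariate. The assembly ratio was tested over loci with a mean of at least 1 CPM in each assembly. Alternatives used edgeR 4.0.16 and DESeq2 1.42.0 on the recovered reads, other pseudocounts, filters and scaling, contigs tested singly, and libraries left out. The tests were checked on simulated data.

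The members, lists and tests were chosen with earlier results of these data known. Genes given with every library's value were the 3 highest of each family and, per comparison, the 5 members with the smallest p where fewer passed. The counts of groups that do not overlap, of highest and lowest lines and of the spread of assembly shares were added after the values were seen.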

Additional observations from a re-analysis of the deposited data

Results flagged for a closer look

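In groups of at least 4 lines, here the susceptible lines of cross B, each of 41 genes was checked for a line far from the other 3, and chance alone picks out about 1 in 20. This picked out 3 genes. IAA12, known as BODENLOS and a partner of ARF5 in the Arabidopsis embryo, stood at 17.2 CPM in SP7 against 14.9 to 15.2 CPM in the other 3 lines. IAA16 stood at 58.1 CPM in SP9 against 44.2 to 46.4 CPM. IAA26 stood at 22.2 CPM in SP9 against 14.1 to 15.4 CPM. SP9 also had the highest sum of photosynthetic markers in its group (77748 CPM, against 54578 to 61527 CPM in the other 3 lines), and the part of these markers in its values was not tested.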

How the results depend on the processing

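No member passed in any phenotype comparison under any alternative run, and 687 values of single genes kept their direction and their side of the threshold. The exceptions were 4 calls of ARF1 and IAA3 between the crosses, given above, and 1 change of sign, the assembly ratio of ARF7 between phenotypes, which was 0.02, ranged from -0.0046 to 0.051 with 1 library left out and was negative only without R206. DESeq2 called 20 loci between phenotypes, 9 within cross A, 66 within cross B, 16 for the difference between crosses and 772 between crosses, among the last 2 members. Without S205 and SP9 these counts were 1 within cross A, 23 within cross B and 5 for the difference, and 1 member was called between crosses. Contigs tested singly gave 1 locus within cross A, 10 within cross B and 447 between crosses. A pseudocount of 2 gave 1 locus within cross A, 2 within cross B and, for the assembly ratio between phenotypes, 0.0253% of loci. With 1 library left out, loci called ranged from 0 to 0 between phenotypes, 0 to 6 within cross A (6 without R221), 0 to 17 within cross B (17 without SP9, 7 without RP8, 0 without R202, RP6, SP3, SP7 or SRP1), 0 to 7 for the difference (7 without R221) and 54 to 270 between crosses (54 without SP3), with 0 to 1 members in the last. For the assembly ratio the share of loci called ranged from 0.0253% to 0.0505% between phenotypes and from 0.859% to 5.58% between crosses (5.58% without R206). Rescaling moved the median of all loci by less than 0.1 on the log2 scale. Taking the highest contig alone gave 108 CPM per kb for IAA9, 72.3 for IAA7, 25.8 for ARF7, 9.02 for ARF8 and 13.4 for AFB2. Levels per Arabidopsis coding length were not run, since no reference table was used here. No paired analysis was possible because lines carry names and no replicate numbers shared between groups. With 2 to 4 lines per group, real differences could go uncalled. The intervals given are unadjusted and do not mark what the adjusted threshold could detect. For example, the interval of ARF10 between phenotypes, -0.52 to -0.17, left out 0, and its limma adjusted p was 0.587.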

Other observations

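In Arabidopsis several of these genes are cut by small RNAs, and they are grouped here by that small RNA as a description, with no test of a group. The values are log2 differences between resistant and susceptible lines, and none passed an adjusted p under 0.05 by limma. Of the 3 targets of miR160, ARF10 had -0.29 within cross A and -0.40 within cross B, ARF16 had -0.17 within cross A and 0.13 within cross B, and ARF17 had -0.28 within cross A and 0.01 within cross B. All 3 were thus negative in cross A, and ARF10 alone was negative in cross B. In cross A the value of ARF17 was -0.04 without S205, the line with the highest ARF16 (26.2 CPM) and ARF17. Of the targets of miR167, ARF6 had 0.18 within cross A and 0.24 within cross B, and ARF8 had 0.11 within cross A and 0.20 within cross B. Of the targets of the trans-acting small RNAs, ARF2 had -0.07 within cross A and 0.10 within cross B, ARF3 had 0.01 within cross A and 0.22 within cross B, and ARF4 had 0.16 within cross A and 0.33 within cross B. Of the targets of miR393, TIR1 had -0.03 within cross A and -0.03 within cross B, AFB2 had 0.09 within cross A and 0.05 within cross B, and AFB3 had -0.09 within cross A and 0.00 within cross B. The small RNAs themselves were not analysed here.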
